A study of Mus musculus with 12 samples.

Results

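The desaturases that put double bonds into fatty acyl chains and into the sphingoid base of ceramide were followed in RNA-seq libraries of the mouse adrenal cortex. The genes were chosen by symbol: the fatty acid desaturases *Fads1*, *Fads2*, *Fads3*, and *Fads6*, the stearoyl-CoA desaturases *Scd1* and *Scd2*, and the dihydroceramide desaturases *Degs1* and *Degs2*. All 8 were found among the 49585 genes of the count tables, which name genes by Ensembl identifier (*Fads2*, for example, is ENSMUSG00000024665 and *Fads6* is ENSMUSG00000044788). Of these, 7 passed the filter on low counts and were tested, and *Degs2* did not pass.

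The libraries came from 12 mice, 4 per group and 1 library per mouse. The study's methods describe male wild-type C57BL/6J mice that were 6 weeks old when feeding began. LFD mice, labelled ND, received a low-fat diet for 20 weeks. HFD mice received a high-fat diet for the same time. Icosapent ethyl–treated mice, labelled Vasc, received the HFD for 20 weeks, and icosapent ethyl, the ethyl ester of eicosapentaenoic acid, was added to it for the last 10 weeks. GEO's labels, in contrast, give the genotype *Fads2*-/- for all 12 mice. The icosapent ethyl group thus shares its diet with the HFD group, and no group received icosapent ethyl on the LFD. The question was how obesity, and icosapent ethyl on top of it, moved the genes that make unsaturated lipids.

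Desaturases are membrane enzymes of the endoplasmic reticulum that take electrons from cytochrome b5 and its reductase. FADS2 catalyzes the first step in the conversion of essential fatty acids into long-chain polyunsaturated fatty acids (PUFA), and FADS1 acts later in the same chain, after an elongation step, and makes arachidonic and eicosapentaenoic acid. SCD1 and SCD2 turn saturated into monounsaturated fatty acids. DEGS1 completes the de novo synthesis of ceramide, and DEGS2 also makes phytoceramide. FADS3 acts on sphingoid bases, and the reaction of FADS6 is less well known. In the adrenal cortex, PUFA are abundant in the phospholipids and in the cholesterol esters that feed steroid synthesis.

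Because the labels and the methods disagree on the genotype, *Fads2* was examined first. Its counts lay between 22359 and 104974 per mouse, out of totals of 34785979 to 67295963. Per kilobase of exon it was the highest of the 8 genes and ranked 123 of 16232 genes. Levels are given as CPM scaled with TMM factors (counts scaled to library size and corrected for library composition). In the LFD mice labelled replicates 2, 5, 6, and 7, *Fads2* stood at 452, 701, 714, and 799 CPM. In HFD mice 1 to 4 it stood at 739, 1293, 2085, and 2182 CPM. In icosapent ethyl–treated mice 1 to 4 it stood at 1120, 589, 901, and 1696 CPM. No mouse lacked *Fads2* RNA, and every library, LFD included, carries the knockout label. The counts sum all exons of a gene, so they do not show whether a part of the transcript is missing, and the genotype is given here only as the labels and the methods state it.

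Sequence near the start of the gene was at hand for 5 of the 8 genes, in RefSeq promoter windows of GRCm38.p6 that run from 250 bases before to 50 after the RefSeq start. The windows of *Fads2*, *Fads3*, *Fads6*, *Degs1*, and *Degs2* were searched on both strands for the GC box (GGGCGG), the NF-Y box (CCAAT), the E-box with a CG core (CACGTG), the SF-1 half-site (AAGGTCA), a sterol element (TCACNCCAC), and AGGTCA direct repeats with 1 or 4 spacer bases. Stretches of 30 bases are shown for 4 genes, so that those higher on the HFD by mean (*Fads2* and *Fads6*), a lower one (*Degs1*), and the one with the smallest difference of the 4 (*Fads3*) can be read side by side. Capitals mark a matched motif.
Fads2, chr19:10101672-10101701, minus strand: cgggcctagggtGGGCGGaggaaggggacc
Fads6, chr11:115297575-115297604, minus strand: agatgcgtgactCCGCCCctccgctcctcc
Degs1, chr1:182282221-182282250, minus strand: gggagcctcaatCACGTGgtccagtcagct
Fads3, chr19:10041430-10041459, plus strand: ctccccgggcagCCAATagatgtggaggcg
The GC box of *Fads2* lay at position -186 from the RefSeq start and that of *Fads6* at -30, the latter read on the opposite strand. The E-box of *Degs1* lay at -43 and the NF-Y box of *Fads3* at -106. A GC box is held by 35.7% of all 32851 windows of this length, an NF-Y box by 37.4%, and this E-box by 7.15%. The sterol element is held by 1.24% of all windows and the SF-1 half-site by 4.72%. Neither was matched in any of the 5 windows. The window of *Fads3* also held another NF-Y box, at -78, and 2 GC boxes, and that of *Degs2*, the gene with the fewest counts, held 5 GC boxes. The AGGTCA repeats, held by 0.0396% (1 spacer base) and 0.0152% (4 spacer bases) of all windows, were matched in none of the 5. The GENCODE start of *Fads2* lies upstream of the RefSeq start, at position 10101746 against 10101503, so that the stretch shown for it is inside the longer gene model, and the same holds for *Fads6* (115297663 against 115297562) and *Degs1* (182282804 against 182282195).

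The genes lay far apart in level. Per kilobase of exon and averaged over the 12 mice, *Fads2* stood at 335.6, *Fads1* at 270.6, and *Scd2* at 251.2 CPM per kb. These 3 genes could not be put in a fixed order, since *Fads2* was above *Fads1* in 10 of 12 mice and *Fads1* above *Scd2* in 5 of 12. *Scd1* followed at 46.7 CPM per kb, below *Scd2* in 12 of 12 mice, and *Degs1* at 37.7, below *Scd1* in 9 of 12. *Fads6* at 20.7, *Fads3* at 2.83, and *Degs2* at 0.0349 CPM per kb came last, each below its neighbour in 12 of 12 mice. The stearoyl-CoA desaturase made in largest amount at the RNA level was thus *Scd2*, and the dihydroceramide desaturase was *Degs1*.

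**Figure D1:**
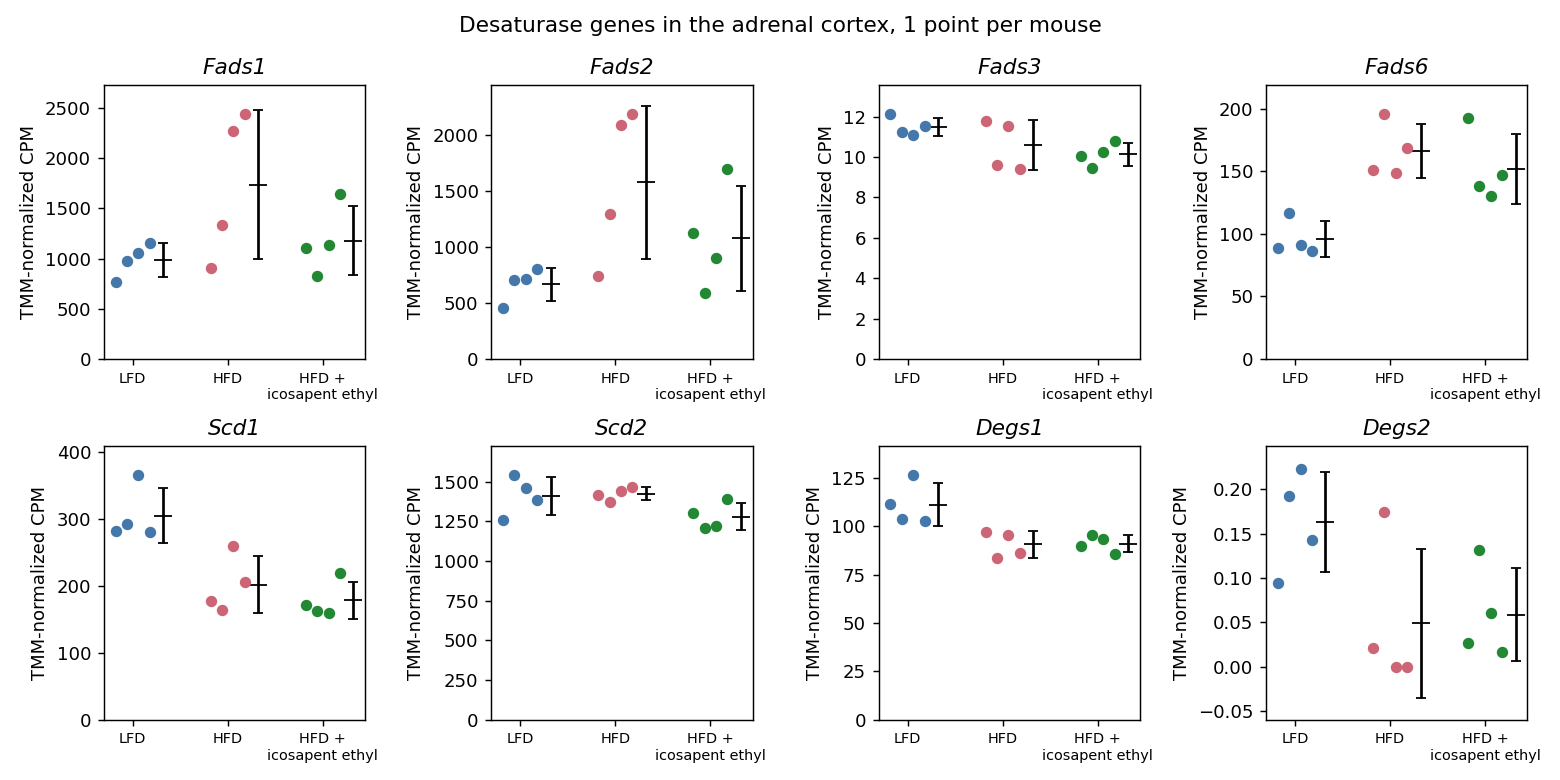
TMM-normalized CPM (vertical axes, a scale of its own for each gene) of the 8 desaturase genes in LFD, HFD, and icosapent ethyl–treated HFD mice (horizontal axes), with 1 point per mouse and the mean and SD of 4 mice beside them. *Fads6* sat between 149 and 195 CPM in HFD mice, above all LFD mice, while *Fads1* and *Fads2* spread widely within the HFD group.

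Between HFD and LFD mice, *Fads1*, *Fads2*, and *Fads6* were higher by mean on the HFD, and of these *Fads6* passed the test in edgeR. *Fads6* stood at 88.5, 117, 91.0, and 86.6 CPM in LFD mice 2, 5, 6, and 7 and at 151, 195, 149, and 169 CPM in HFD mice 1 to 4. No HFD mouse overlapped with the LFD mice. *Fads6* rose 1.72-fold, from 95.8 ± 14.2 to 166 ± 21.5 CPM (SD, n = 4; log2 fold change 0.78 ± 0.13 SE), with an adjusted p of 0.0384 in edgeR's quasi-likelihood test and 4.77e-05 in DESeq2. It was the only one of the 7 tested members to pass an adjusted p of 0.05 in edgeR, against 230 of 15909 genes, or 1.45% of all genes tested. The call was lost in 7 of 8 edgeR fits that left out 1 mouse (adjusted p 0.0599 to 0.133, against 0.0245 without HFD mouse 1), with library totals alone (0.0696), and with the chromaffin covariate described further on (0.397).

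*Fads2* had the largest log2 fold change of the 7 tested members. On the LFD it averaged 666 ± 149 CPM and on the HFD 1575 ± 685 CPM (SD, n = 4), a log2 fold change of 1.23 ± 0.32 SE with a 95% interval of 0.51 to 1.96. The adjusted p was 0.0781 in edgeR, which misses the threshold, and 0.00617 in DESeq2, which passes it. HFD mice 2, 3, and 4 were above all LFD mice, whereas HFD mouse 1, at 739 CPM, lay below LFD mouse 7, at 799 CPM. Without HFD mouse 1, the log2 fold change was 1.47 and the adjusted p in edgeR 0.0209, whereas leaving out any other mouse gave 1.03 to 1.32 and an adjusted p of 0.0926 to 0.193.

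*Fads1* followed the same order of mice. It stood at 763, 976, 1059, and 1153 CPM in LFD mice 2, 5, 6, and 7 and at 902, 1334, 2276, and 2438 CPM in HFD mice 1 to 4. HFD mouse 1 again fell inside the LFD range, and the other HFD mice lay above it. *Fads1* differed by 0.81 ± 0.29 SE on the log2 scale, and the adjusted p was 0.143 in edgeR and 0.0632 in DESeq2. Without HFD mouse 1, it was 1.02, with an adjusted p in edgeR of 0.0374, and without any other mouse 0.60 to 0.92, with an adjusted p of 0.149 to 0.306.

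*Fads3*, which lies next to *Fads2* on chromosome 19, was low and even. It ranged from 11.1 to 12.1 CPM in LFD mice and from 9.41 to 11.8 CPM in HFD mice, and these ranges overlapped. Its log2 fold change was -0.13 ± 0.13 SE, with a 95% interval of -0.43 to 0.17 and an adjusted p of 0.589 in edgeR.

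The stearoyl-CoA desaturases differed from each other. *Scd1* stood at 282, 292, 366, and 281 CPM in LFD mice 2, 5, 6, and 7 and at 177, 164, 260, and 206 CPM in HFD mice 1 to 4. All HFD mice were below all LFD mice. The log2 fold change of *Scd1* was -0.61 ± 0.16 SE, with an adjusted p of 0.076 in edgeR, short of the threshold, and 0.02 in DESeq2. *Scd2* stood at 1260, 1542, 1460, and 1387 CPM in LFD mice and at 1416, 1374, 1440, and 1469 CPM in HFD mice. The HFD mice lay inside the LFD range, and the 95% interval of the log2 fold change ran from -0.19 to 0.20.

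*Degs1* was lower in each HFD mouse than in any LFD mouse. It stood at 112, 104, 126, and 103 CPM in LFD mice 2, 5, 6, and 7 and at 97.0, 83.6, 95.7, and 86.0 CPM in HFD mice 1 to 4. *Degs1* differed by -0.30 ± 0.097 SE on the log2 scale, and the adjusted p was 0.113 in edgeR and 0.0751 in DESeq2, so that neither test called it. *Degs2* had 5, 9, 10, and 6 counts in the LFD mice and 1, 9, 0, and 0 counts in the HFD mice. It fell under the filter on low counts for edgeR, DESeq2 gave it an unadjusted p of 0.115 and no adjusted p, and HFD mouse 2 had as many counts as an LFD mouse.

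Of the 7 tested members, 4 were higher and 3 lower by mean on the HFD, against 48.2% of all genes that were higher, and their median log2 fold change was 0.0048 against -0.015 over all genes. The groups did not overlap for 3 members (*Fads6*, *Scd1*, and *Degs1*), against 13.5% of all genes tested. An unadjusted p below 0.05 was reached by 5 members, against 24.8% of all genes. DESeq2 called 3 members (*Fads2*, *Fads6*, and *Scd1*), against 12.3% of all genes it tested.

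**Figure D2:**
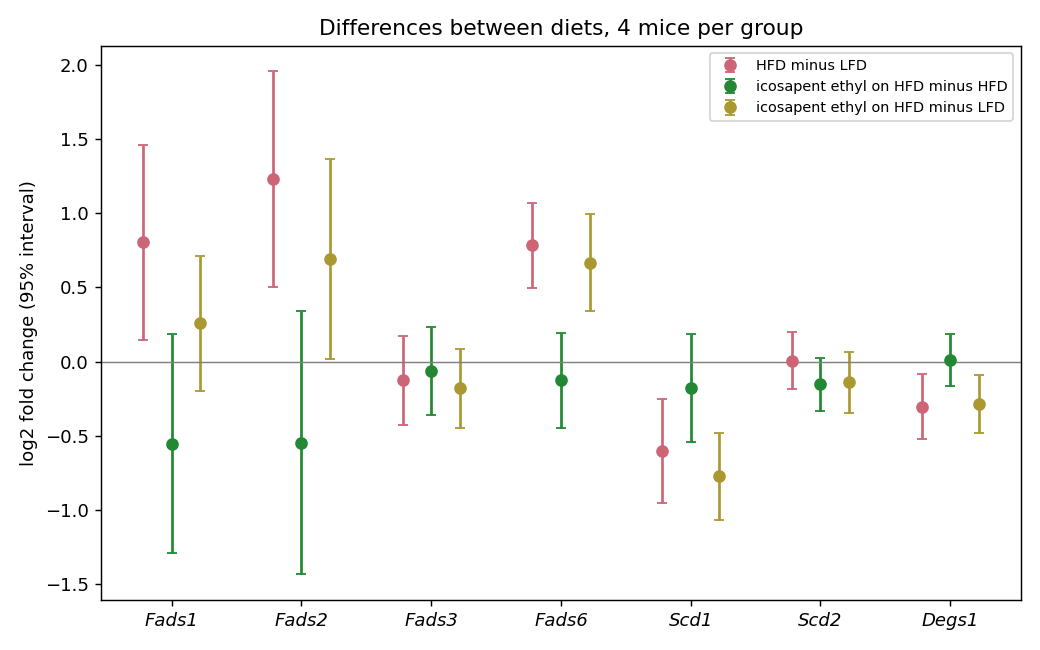
Log2 fold changes from edgeR (vertical axis) with their 95% intervals for the 7 tested desaturase genes (horizontal axis) in the 3 comparisons, 4 mice per group. In HFD against LFD mice *Fads2* had the largest value, 1.23, and *Fads6* the narrower interval, whereas every interval of icosapent ethyl–treated against HFD mice included 0.

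The cortex samples also held RNA of other cells, and some of their markers shifted with the diet by mean. The 10 chromaffin cell markers, genes of the adrenal medulla, summed to between 5342 and 18612 CPM in LFD mice and between 2646 and 8338 CPM in HFD mice, and 10 of 10 were lower by mean on the HFD (median of -1.24 on the log2 scale). None of the 10 passed the test in edgeR and 5 did in DESeq2, against 1.45% and 12.3% of all genes. The 8 adrenocortical markers, which define the labelled tissue, summed to between 43635 and 72549 CPM in LFD and between 57613 and 101694 CPM in HFD mice. They were higher by mean in 8 of 8, with a median of 0.50 on the log2 scale, and no marker of either list was at 0. In bulk tissue, fewer cells of a type and less RNA per cell cannot be told apart. With the mean log2 CPM of the 10 chromaffin markers as a covariate, no gene passed the test in edgeR. An unadjusted p below 0.05 was left for 1391 genes. The log2 fold changes moved to 0.94 for *Fads2*, 0.59 for *Fads1*, 0.67 for *Fads6*, -0.40 for *Scd1*, and -0.11 for *Degs1* (adjusted p in edgeR 0.397 or more). Within the HFD group, the chromaffin sum was 8338, 2646, 7166, and 2763 CPM in mice 1 to 4, and mice 3 and 4 had similar *Fads2*. HFD mouse 1, with the highest sum of its group, had the lowest *Fads2*, and LFD mouse 7 and treated mouse 4, with the lowest sums of theirs (5342 and 4732 CPM), had the highest. Other mice did not keep this order. HFD mouse 2, with the lowest sum of its group, had less *Fads2* (1293 CPM) than mice 3 and 4. LFD mouse 6 and treated mouse 3, with the highest sums of theirs (18612 and 9042 CPM), did not have the lowest *Fads2* (714 and 901 CPM).

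Of the other cell types, macrophage markers summed to between 641 and 968 CPM in LFD and between 451 and 549 CPM in HFD mice. Of the 8 macrophage markers, 6 were lower and 2 higher by mean on the HFD. Of these markers, 3 of 8 (*Cd68*, *C1qa*, and *Lyz2*) fell in edgeR, which called 1.45% of all genes. Adipocyte markers summed to between 253 and 449 CPM in LFD and between 386 and 502 CPM in HFD mice. With the mean log2 CPM of the adipocyte markers as a covariate, 5 members and 2582 genes passed the test in edgeR. *Fads1* then had a log2 fold change of 1.0 (adjusted p in edgeR 0.0443), *Fads2* of 1.48 (0.0184), and *Degs1* of -0.39 (0.0273).

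Icosapent ethyl on the HFD moved no desaturase past the test. No member and none of 15913 genes, 0%, passed an adjusted p of 0.05 in edgeR, 221 genes (1.39%) had an unadjusted p below 0.05, and DESeq2 called 7 genes (0.0268%) and no member. No member had an unadjusted p below 0.05 or groups that did not overlap, against 1.14% of all genes for the latter. By mean, 6 of 7 members were lower and 1 was higher in icosapent ethyl–treated than in HFD mice, against 51.1% of all genes that were higher. The members' median was -0.15 on the log2 scale, and that of all genes was 0.0040.

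*Fads1* stood at 1110, 828, 1140, and 1645 CPM in icosapent ethyl–treated mice 1 to 4, and *Fads2* at the values given above. For both genes, 1 treated mouse, number 2, lay below all HFD mice, and the other 3 lay inside the HFD range. The log2 fold change was -0.56 for *Fads1*, with a 95% interval of -1.30 to 0.18, and -0.55 for *Fads2*, with an interval of -1.44 to 0.34. Both intervals thus hold lower and higher values, and the spread between mice, at 22359 or more counts of each gene in a mouse, sets their width.

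*Fads6* stood at 193, 138, 130, and 147 CPM in icosapent ethyl–treated mice 1 to 4. Treated mice 2, 3, and 4 were below all HFD mice and mouse 1 was near the highest of them, and the 95% interval of the log2 fold change was -0.45 to 0.19. *Scd1* stood at 172, 163, 160, and 219 CPM in the treated mice, with an interval of -0.54 to 0.19. *Scd2* stood at 1301, 1210, 1220, and 1391 CPM, and its log2 fold change of -0.15 had the lowest unadjusted p of the members, 0.0811 in edgeR.

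*Degs1* stood at 89.7, 95.4, 93.3, and 85.7 CPM in the treated mice, inside the HFD range, and its log2 fold change was 0.0080 with an interval of -0.17 to 0.18. *Fads3* lay between 9.43 and 10.8 CPM. *Degs2* had 1, 5, 3, and 1 counts. The 10 chromaffin markers summed to between 4732 and 9042 CPM in the treated mice, and 10 of 10 were higher by mean than in HFD mice. Adrenocortical markers were lower by mean in 8 of 8. With the chromaffin covariate, the log2 fold change was -0.30 for *Fads2*, -0.36 for *Fads1*, and -0.021 for *Fads6*, and no member was called in edgeR.

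The icosapent ethyl–treated mice were also set against the LFD mice, which differ from them in both diet and supplement. No member and none of 15935 genes, 0%, passed the test in edgeR, where 2225 genes (14%) had an unadjusted p below 0.05, among them 4 members. By mean 3 members were higher and 4 lower, against 49.4% of all genes that were higher. DESeq2 called 417 genes, 2.69% of those it tested, and among them *Fads6* (adjusted p 0.00964) and *Scd1* (adjusted p 0.000645). *Fads6* had a log2 fold change of 0.67 ± 0.15 SE and *Scd1* of -0.77 ± 0.13 SE, with adjusted p of 0.184 and 0.153 in edgeR. The groups did not overlap for 4 of the 7 members (*Fads3*, *Fads6*, *Scd1*, and *Degs1*), against 7.73% of all genes. For *Fads3* the gap was narrow, from 10.8 CPM in the highest treated to 11.1 CPM in the lowest LFD mouse. Its log2 fold change was -0.18, with an adjusted p in edgeR of 0.498. *Fads2* had a log2 fold change of 0.69, with a 95% interval of 0.015 to 1.37 and an adjusted p in edgeR of 0.352. Chromaffin markers were lower by mean in 10 of 10 (median -0.71 on the log2 scale) and adrenocortical markers higher in 8 of 8, and with the chromaffin covariate the log2 fold change was 0.34 for *Fads2*, 0.031 for *Fads1*, 0.67 for *Fads6*, and -0.79 for *Scd1*. This comparison and the HFD against LFD comparison share the LFD mice.

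Ratios of related genes within a mouse do not depend on the scaling of the library. The log2 ratio of *Fads2* to *Fads1* counts was -0.76, -0.48, -0.57, and -0.53 in LFD mice 2, 5, 6, and 7 and -0.29, -0.045, -0.13, and -0.16 in HFD mice 1 to 4. All HFD mice were higher, by 0.43 on average, so that *Fads2* differed more than *Fads1* between the diets. In an exact permutation test, two-sided, p was 0.0286, the smallest that 4 against 4 mice can give, and 0.0667 after Benjamini-Hochberg adjustment over 7 such tests. In icosapent ethyl–treated mice the ratio was 0.013, -0.49, -0.34, and 0.044, which spanned the HFD range and went beyond it on both sides (difference from HFD mice -0.039, exact permutation p = 0.829).

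The log2 ratio of *Scd2* to *Scd1* was 2.16, 2.40, 2.0, and 2.31 in LFD mice and 3.0, 3.06, 2.47, and 2.84 in HFD mice. All HFD mice were higher, by 0.63 on average (exact permutation p = 0.0286, adjusted 0.0667). In icosapent ethyl–treated mice it was 2.92, 2.89, 2.93, and 2.67, again above all LFD mice by 0.64 on average (exact permutation p = 0.0286, adjusted 0.0667) and 0.011 from the HFD mean (exact permutation p = 0.971). Reads that *Scd1* and *Scd2* could share are few: 3.15% of the 75-base runs of *Scd1* transcripts and 1.78% of those of *Scd2* also occur in another gene, and none of those of *Fads1*, *Fads2*, *Fads3*, *Degs1*, or *Degs2* do. The ratio of *Degs2* to *Degs1* could be formed in all mice of the LFD and treated groups only, with a log2 difference of -1.57 (exact permutation p = 0.0571, adjusted 0.0799). With a prior count of 2 added to these few counts, the difference was -0.83 (exact permutation p = 0.0857).

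**Figure D3:**
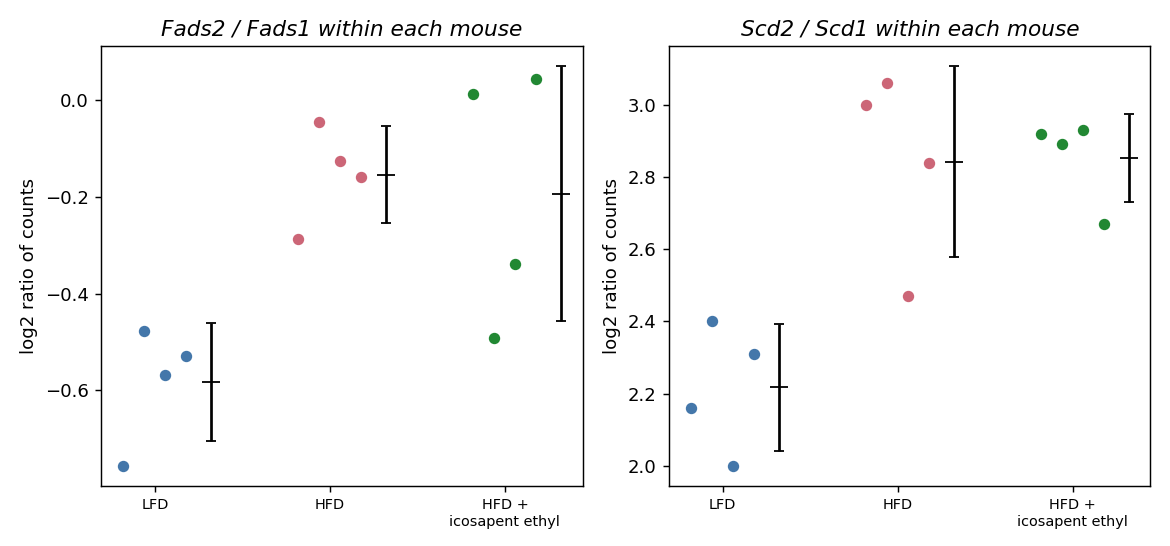
Log2 ratio of counts within each mouse (vertical axes, not starting at 0) of *Fads2* to *Fads1* and of *Scd2* to *Scd1* in the 3 groups (horizontal axes), with 1 point per mouse and the mean and SD of 4 mice. For both ratios the 4 HFD mice lay above the 4 LFD mice.

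Across mice, *Fads1* and *Fads2* moved together. On log2 CPM with the group means removed, Pearson's r was 0.969 and Spearman's rho 0.951 over the 12 mice (permutation p = 1e-05 for each, the smallest that the 100000 resamples can give, adjusted 6e-05 over 6 relations). Without the 2 mice farthest from the median of *Fads2* (HFD mouse 1 and treated mouse 2), r was 0.946 over 10 mice. *Scd1* had r = 0.667 with *Fads2* (permutation p = 0.0187, adjusted 0.05; rho 0.783, adjusted 0.0113) and 0.684 without those mice. *Scd2* had r = 0.639 (permutation p = 0.025, adjusted 0.05; rho 0.622, adjusted 0.069) and 0.751 without them. For *Fads6*, *Fads3*, and *Degs1*, r was 0.193, -0.114, and -0.392, with adjusted permutation p of 0.652, 0.724, and 0.31. These values depended on the scaling: with library totals alone, r stayed at 0.953 for *Fads1* but was 0.286 for *Scd1*, -0.395 for *Scd2*, -0.713 for *Fads3*, and -0.823 for *Degs1*. Summed adrenocortical markers stood at 43635, 52354, 54991, and 72549 CPM in LFD mice 2, 5, 6, and 7. In HFD mice 1 to 4 they stood at 57613, 73886, 101694, and 98393 CPM. Treated mice 1 to 4 had 74028, 60415, 76245, and 93589 CPM. In each group, the mouse with the lowest sum had the lowest *Fads1* and *Fads2*. The highest sum went with the highest of both genes except in HFD mice. Whether r depended on this sum was not tested.

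**Figure D4:**
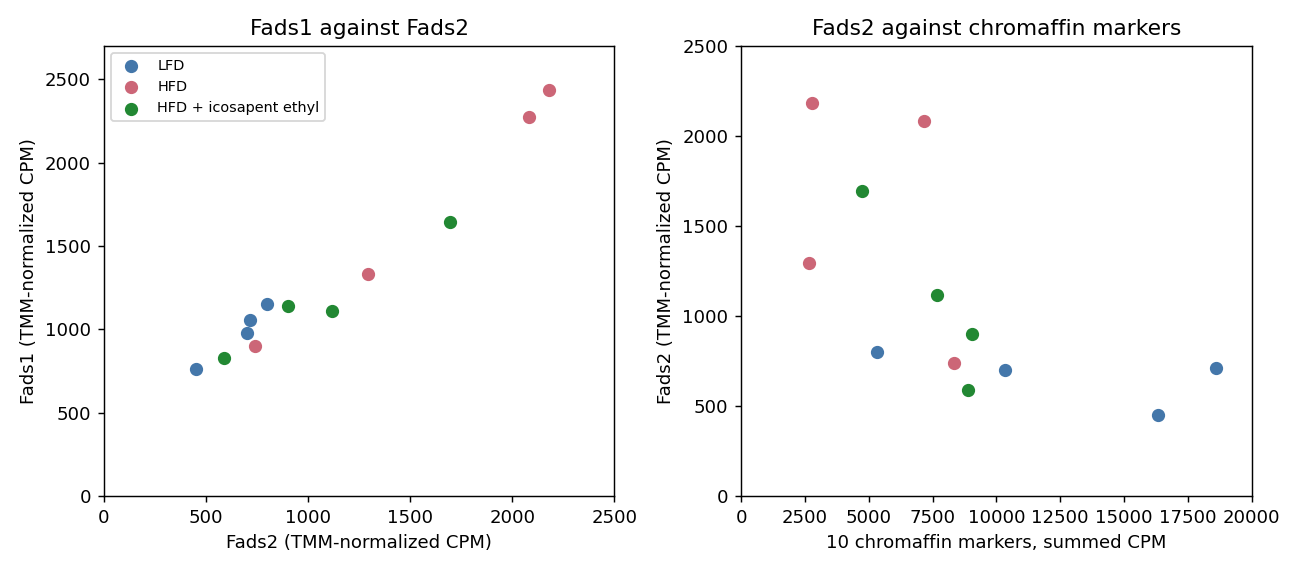
Left, *Fads1* against *Fads2* (TMM-normalized CPM, 1 point per mouse, colors as in the legend); right, *Fads2* against the summed CPM of 10 chromaffin markers. *Fads1* and *Fads2* lie along a line in all 3 groups (r = 0.969 after group means were removed), and in the LFD and treated groups the mouse with the lowest chromaffin sum (5342 and 4732 CPM) has the highest *Fads2*, while HFD mice 3 and 4 have similar *Fads2* at sums of 7166 and 2763 CPM.

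Among 9478 genes compared over the 12 mice by Pearson's r of log2 CPM, genes most like *Fads2* included *Rangap1* (0.985) and *Akr1b3* (0.981). Those most like *Fads1* were *Slc25a17* (0.973), *Tpp1* (0.971), and *Rims4* (0.971), and those most like *Scd1* were *Eef1g* (0.942), *Ckb* (0.94), and *Npc2* (0.937). The points of these correlations share libraries, diets, and tissue composition.

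*Fads1*, *Fads2*, and *Fads3* form a cluster on mouse chromosome 19. The starts of *Fads2* (10062765 to 10101746, minus strand) and *Fads1* (10182888 to 10196877, plus strand) are 81142 bases apart and point away from each other, while the ends of *Fads3* (10041569 to 10060110, plus strand) and *Fads2* are 2655 bases apart. The other tested genes at this locus, *Rab3il1*, *Fen1*, *Tmem258*, and *Myrf*, had log2 fold changes of -0.32, 0.13, -0.064, and 0.56 in HFD against LFD mice (adjusted p in edgeR 0.498 or more). The stearoyl-CoA desaturases form a second cluster, with *Scd2* (44293674 to 44306864) and *Scd1* (44394455 to 44407879) facing each other across 87591 bases. *Fads6* lies on chromosome 11 (115279622 to 115297663), *Degs1* on chromosome 1 (182275772 to 182282804), and *Degs2* on chromosome 12 (108678711 to 108702315), all on the minus strand. Positions are those of GENCODE M21 on GRCm38. *Scd3* and *Scd4*, the other genes of that family, stood at a mean of 0.233 and 0.331 CPM and passed no test.

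The pathway around the desaturases was described with 6 lists of genes. Over all genes tested in HFD against LFD mice, edgeR called 1.45% and DESeq2 12.3%. In HFD against LFD mice, the electron donors had 5 of 6 tested genes higher by mean, with a median log2 fold change of 0.22, and 0 called in edgeR and 2 in DESeq2. *Cyb5a*, cytochrome b5 of the endoplasmic reticulum, had a log2 fold change of 0.53 (adjusted p in edgeR 0.221), and its reductase *Cyb5r3* of 0.48 (0.0774, and 0.0254 in DESeq2). Other desaturases and related oxidases had 4 of 6 higher, with 0 called in edgeR and 2 in DESeq2. In that list the sterol enzymes *Msmo1* and *Sc5d* had values of 1.02 (adjusted p 0.127 in edgeR and 0.0384 in DESeq2) and 0.66 (0.122 and 0.0545).

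Elongation genes, which lengthen the chain between the FADS2 and FADS1 steps, had 9 of 15 higher, with 0 called in edgeR and 3 in DESeq2. Among them *Hacd4*, a dehydratase of the elongation cycle, had a log2 fold change of -0.62 (adjusted p 0.126 in edgeR and 0.0489 in DESeq2). Genes of saturated fatty acid synthesis had 6 of 9 higher and 3 lower, with a median log2 fold change of 0.084. DESeq2 called 3 of them and edgeR 1, *Gpam*, which begins the building of glycerolipids. Besides *Gpam*, the calls of DESeq2 were *Acly*, higher by 0.73 (adjusted p in DESeq2 0.0285), and *Thrsp*, lower at -0.61 (0.00453). *Gpam* rose from 13.5 ± 4.74 to 52.0 ± 27.3 CPM (SD, n = 4; log2 fold change 1.94, adjusted p in edgeR 0.045).

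Regulators of desaturase transcription had 10 of 15 higher, with 0 called in edgeR and 2 in DESeq2. *Scap*, the escort of the SREBP factors, had a log2 fold change of 0.51 (adjusted p in edgeR 0.0712, and 0.0198 in DESeq2), and the nuclear receptor *Ppard* of 0.45 (0.543). De novo ceramide synthesis, the pathway of the *Degs* genes, had 3 of 12 higher and 9 lower, with a median of -0.12, and 0 called in edgeR and 2 in DESeq2. The ceramide synthases *Cers4* and *Cers2* had values of -0.71 (adjusted p 0.1 in edgeR and 0.0247 in DESeq2) and 0.31 (0.173 and 0.183).

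In icosapent ethyl–treated against HFD mice, no gene of the 6 lists was called by either test. By mean, the electron donors were higher in 0 of 6, saturated fatty acid synthesis in 0 of 9, elongation in 3 of 15, the regulators in 3 of 15, the other desaturases in 3 of 6, and ceramide synthesis in 7 of 12. The medians lay between -0.17 and 0.037 on the log2 scale, against 0.0040 over all genes.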

How the data were processed

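RNA-seq of the adrenal cortex of 12 mice was used. Per the study's methods, the authors made stranded total RNA libraries, trimmed reads with cutadapt, aligned them to GRCm38 with STAR, and deposited raw read counts per gene (HTSeq 0.6.1p1, reverse-strand mode, mapping quality of at least 20, GENCODE M12). The methods call the libraries paired-end and the reads single. Identifiers were matched to GENCODE M21, which gave exon lengths. Totals were 34785979 to 67295963 counts per mouse. *Fads3* had 358 to 668 counts in a mouse and *Degs2* at most 10, so that counting error weighed more in them than in the other members. All 66 pairs of libraries differed beyond sampling noise (chi-square of at least 26.5 per degree of freedom). Nothing states whether mice of a group shared a cage or a day. The p-values of edgeR and DESeq2 set a difference between groups against the spread between these mice, estimated in part from other genes.

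Each comparison was fitted in the mice of its 2 groups with edgeR 4.0.16 in R 4.3.3 (TMM, filterByExpr with a minimum count of 10, robust quasi-likelihood test, Benjamini-Hochberg adjustment over all genes tested, threshold 0.05). DESeq2 1.42.0, other scalings, filters and thresholds, marker covariates, a fit of all 12 mice, and leaving out each mouse were alternatives. Correlations of the members with *Fads2* used log2 CPM without a prior count. The search for similar genes and the marker covariates used a prior count of 2. On simulated counts of 15735 genes for HFD versus LFD mice, edgeR called 84 of 200 genes changed 2-fold and 5 unchanged genes. HFD and icosapent ethyl–treated mice share the numbers 1 to 4, and their same-numbered deviations correlated at 0.24, 0.116, 0.34, and 0.632. Pairs with different numbers correlated at -0.634 to 0.598, so that these values do not show that equal numbers mark a pair. A fit with the number as a block was run as an alternative. Between LFD and HFD mice, number 2 alone is shared.

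The members, the lists, and the tests were chosen with earlier results of these data known. Named genes were the 8 desaturases, the 3 genes most like *Fads1*, *Fads2*, and *Scd1*, the neighbours of the clusters, and from each pathway list every gene called or else the 2 with the largest difference in HFD versus LFD mice at a mean of at least 10 CPM. Further list genes named for a cell type were past the threshold in edgeR or DESeq2. Some genes that this rule picks are not reported here.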

Additional observations from a re-analysis of the deposited data

Results flagged for a closer look

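Within groups of 4 mice, a mouse was looked at again where its gap to the nearest other mouse exceeded Dixon's critical value of 0.829 as a share of the group's range. Of 32 groups examined, 4 held such a mouse, and chance gives about 1 in 20. *Fads6* stood at 117 CPM in LFD mouse 5 against 86.6 to 91.0 in the other LFD mice. *Scd1* stood at 366 CPM in LFD mouse 6 against 281 to 292. *Degs2* stood at 0.174 CPM in HFD mouse 2 against 0 to 0.0213, a difference of a few counts. The log2 ratio of *Scd2* to *Scd1* was 2.67 in icosapent ethyl–treated mouse 4 against 2.89 to 2.93.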

How the results depend on the processing

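In HFD against LFD mice, edgeR called 230 genes and 1 member, and both counts depended on the setting. At a threshold of 0.1 they were 1396 and 3, in DESeq2 1965 and 3, with library totals alone 84 and 0, with the adipocyte covariate 2582 and 5, with the chromaffin covariate 0 and 0 (1391 genes at an unadjusted p below 0.05), and 556 genes with all 12 mice in 1 fit. Library totals moved the share of calls that were higher from 67.4% to 47.6% and the median of all genes to -0.11. Leaving out 1 mouse gave 0 to 918 genes and 0 to 3 members, the highest without HFD mouse 1. *Fads6* was called in 1 of these 8 fits, that without HFD mouse 1, with adjusted p from 0.0245 to 0.133, and its log2 fold change stayed between 0.70 and 0.89. *Scd2* was near 0 and changed sign, to -0.094 with library totals, to -0.0035 with 10 counts in every mouse, and over -0.037 to 0.049 without 1 mouse. *Fads3* was 0.020 with the chromaffin covariate.

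In icosapent ethyl–treated against HFD mice, DESeq2 called 7 genes against 0, and *Degs1* was -0.073 with the chromaffin covariate and -0.029 to 0.043 without 1 mouse. The fit with the replicate number as a block called 0 genes and 0 members in edgeR (696 genes at an unadjusted p below 0.05) and changed no call. In treated against LFD mice, DESeq2 called 417 genes and 2 members, the fit of all 12 mice 2 genes, and fits without 1 mouse 0 to 1.

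Without 1 mouse, the *Fads2* to *Fads1* difference ran from 0.37 to 0.47 in HFD against LFD, from -0.12 to 0.060 in treated against HFD, and from 0.31 to 0.49 in treated against LFD mice. That of *Scd2* to *Scd1* ran from 0.55 to 0.75, from -0.11 to 0.085, and from 0.57 to 0.70, and that of *Degs2* to *Degs1* in treated against LFD mice from -2.08 to -1.12. The exact permutation p, unadjusted, of *Scd2* to *Scd1* in HFD against LFD mice was 0.0571 without any 1 of the LFD mice. Without treated mouse 2, it was 0.0286 in treated against LFD mice for *Fads2* to *Fads1* and for *Degs2* to *Degs1*. With library totals, r with *Fads2* was -0.713 for *Fads3*, -0.177 for *Fads6*, -0.395 for *Scd2*, and -0.823 for *Degs1*. The cause of these changes was not tested, except that fewer mice were tested where 1 was left out. Depth limits the results on *Degs2*, which had at most 10 counts in a mouse.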
